A study of Mus musculus with 8 samples.

Results

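Expression of 10 genes that mark pluripotent and early epiblast cells was followed in 8 RNA sequencing libraries of mouse anterior neural progenitor cells. The genes were Pou5f1, Nanog, Utf1, Dppa2, Dppa4, Dppa5a, Tdgf1, Fgf5, Lin28a and Zfp42. They were chosen by symbol, and each matched 1 of the 46406 genes listed in the expression table, of which 20570 carry a symbol. Levels are in FPKM, the number of fragments scaled by gene length and library total, so they can be compared between genes. Of the 10 genes, 7 had a mean of at least 1 FPKM over the 8 libraries and entered the test across 14521 genes, and in each of these 7 the WT mean and both clone means also lay above 1 FPKM. Zfp42, Tdgf1 and Dppa2 lay below that limit and are given as levels.

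The cells were made from E14 mouse embryonic stem cells, a line kept in medium with 15% serum and the cytokine LIF. For differentiation they were moved to serum-free N2B27 medium without LIF, with 10 ng/ml bFgf for 3 days and without it for another 2 days. The WNT inhibitor Xav939 was present at 5 µM from day 2 to day 5. This schedule was common to all groups. The WT group was 4 libraries from unedited E14 cells. The null groups lacked a poised enhancer, a regulatory element of the forebrain gene Lhx5 that the labels call PE Lhx5(-109), deleted with CRISPR-Cas9 and guide pairs. Clone 1 and clone 2 are separate null lines, each grown from 1 selected cell, and gave 2 libraries each. The libraries are labelled biological replicates, and the labels do not say whether they came from separate differentiations. P-values therefore measure the spread between these libraries. The deletion and the derivation of a clone cannot be told apart within either line.

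Pluripotency rests on a small set of transcription factors, among them OCT4 (the product of Pou5f1), SOX2 and NANOG, which bind near one another's genes and sustain the undifferentiated state. When embryonic stem cells leave that state, naive genes such as Zfp42 are shut down early, epiblast genes such as Fgf5 rise for a time, and Pou5f1 is lost as cells become neural. Lin28a, which encodes an RNA-binding protein that blocks let-7 maturation, lasts longer and is a normal gene of early neural progenitors.

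Promoters are shown for 3 genes because Nanog and Zfp42 are textbook targets of the OCT4 and SOX2 pair and Pou5f1 encodes OCT4 itself. The sequences are from RefSeq on GRCm38.p6, read 5′ to 3′ on the strand of the gene and ending just before the RefSeq transcript start, or for Pou5f1 just before the GENCODE gene start, which lies further upstream. Distances are counted from the RefSeq start of the window shown. A short stretch of bases beyond that start was found in a GENCODE transcript for Pou5f1 but not for Nanog and Zfp42. The start shown for Nanog is nonetheless the first base of its GENCODE gene, at 122707489. Nanog has a further RefSeq start downstream, which did match. Capitals mark matches to an octamer core (ATGCAAA), a SOX site (CATTGT) or a GC box (GGGCGG), on either strand. Positions are chr6:122707239-122707488 on the plus strand for Nanog, chr8:43307010-43307259 on the minus strand for Zfp42 and chr17:35505782-35506017 on the plus strand for Pou5f1.
Nanog: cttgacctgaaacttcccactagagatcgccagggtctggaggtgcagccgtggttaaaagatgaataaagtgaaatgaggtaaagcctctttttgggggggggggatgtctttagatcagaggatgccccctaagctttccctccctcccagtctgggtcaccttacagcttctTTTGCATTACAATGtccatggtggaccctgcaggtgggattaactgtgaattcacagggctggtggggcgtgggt
Zfp42: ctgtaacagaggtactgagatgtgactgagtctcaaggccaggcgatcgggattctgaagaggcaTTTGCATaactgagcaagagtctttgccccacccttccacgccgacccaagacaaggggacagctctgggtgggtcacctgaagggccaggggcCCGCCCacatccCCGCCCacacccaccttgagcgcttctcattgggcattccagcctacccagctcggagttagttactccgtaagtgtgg
Pou5f1: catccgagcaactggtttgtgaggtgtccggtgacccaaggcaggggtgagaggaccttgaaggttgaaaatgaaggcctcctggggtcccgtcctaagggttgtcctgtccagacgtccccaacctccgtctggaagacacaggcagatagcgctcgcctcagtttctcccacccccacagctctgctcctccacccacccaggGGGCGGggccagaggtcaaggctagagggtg
In the Nanog promoter the octamer core and the SOX site stand side by side with 1 base between them, and the pair begins 75 bases before the start. That arrangement was found in 2 of 32851 promoter windows of 250 bases (0.00609%), and both are overlapping windows of Nanog. Zfp42 holds an octamer core 185 bases before its start, a motif present in 4.12% of windows, and a pair of GC boxes. Pou5f1 holds a GC box 45 bases before its start, a motif present in 32.7% of windows. SOX sites are present in 10.7% of windows, among them those of Nanog, Lin28a and a second Pou5f1 start. Of the other genes, Utf1 has 4 GC boxes, and Tdgf1 and Fgf5 have 1 each. Windows matched 7 of the 10 genes and were not used here for Dppa2, Dppa4 and Dppa5a. A match describes the letters only.

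Lhx5 stood at 15.0 to 17.5 FPKM in WT and at 0.854 to 1.90 FPKM in the null libraries. The FPKM sum of a library was 518491 to 528726, 13983 to 14338 genes reached 1 FPKM, and relative depths estimated from low values were 0.986 to 1.20 of WT replicate 1. Clone 1 replicate 2 stood apart: Rn7sk, Rpph1 and Rmrp, RNAs without a poly(A) tail, were at 250.2, 371 and 112 FPKM there, and at no more than 28.4, 22.8 and 7.62 FPKM in any other library. Its median gene was lower, with a scaling factor of 0.941 against 1.002 to 1.022 in the others. Counts of calls in clone 1 are therefore also given without it. The 9 neural progenitor markers examined all passed the filter on low values, with WT means of 135 FPKM for Sox2, 38.6 FPKM for Pax6 and 21.8 FPKM for Sox1.

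The 10 genes spanned more than 3 orders of magnitude in WT. Lin28a was the highest at 220 ± 3.72 FPKM (SD, n = 4), which placed it at the 97.7th percentile of all tested genes. Pou5f1 followed at 22.6 ± 5.53 FPKM. The next levels were 6.19 ± 0.950 FPKM for Dppa5a, 4.39 ± 0.904 for Nanog, 2.64 ± 0.279 for Dppa4, 1.95 ± 0.672 for Fgf5, 1.40 ± 0.212 for Utf1 and 1.25 ± 0.127 for Zfp42. Tdgf1 and Dppa2 stood at 0.169 ± 0.115 and 0.0801 ± 0.0439 FPKM. Ranges over the WT libraries overlapped for the neighbours Dppa5a and Nanog, Dppa4 and Fgf5, Fgf5 and Utf1, Utf1 and Zfp42, and Tdgf1 and Dppa2. The other neighbours in this order did not overlap. In a bulk library, fewer cells of a type and less RNA per cell cannot be told apart, so a level of 22.6 FPKM does not say how many cells contained Pou5f1 RNA.

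**Figure D1:**
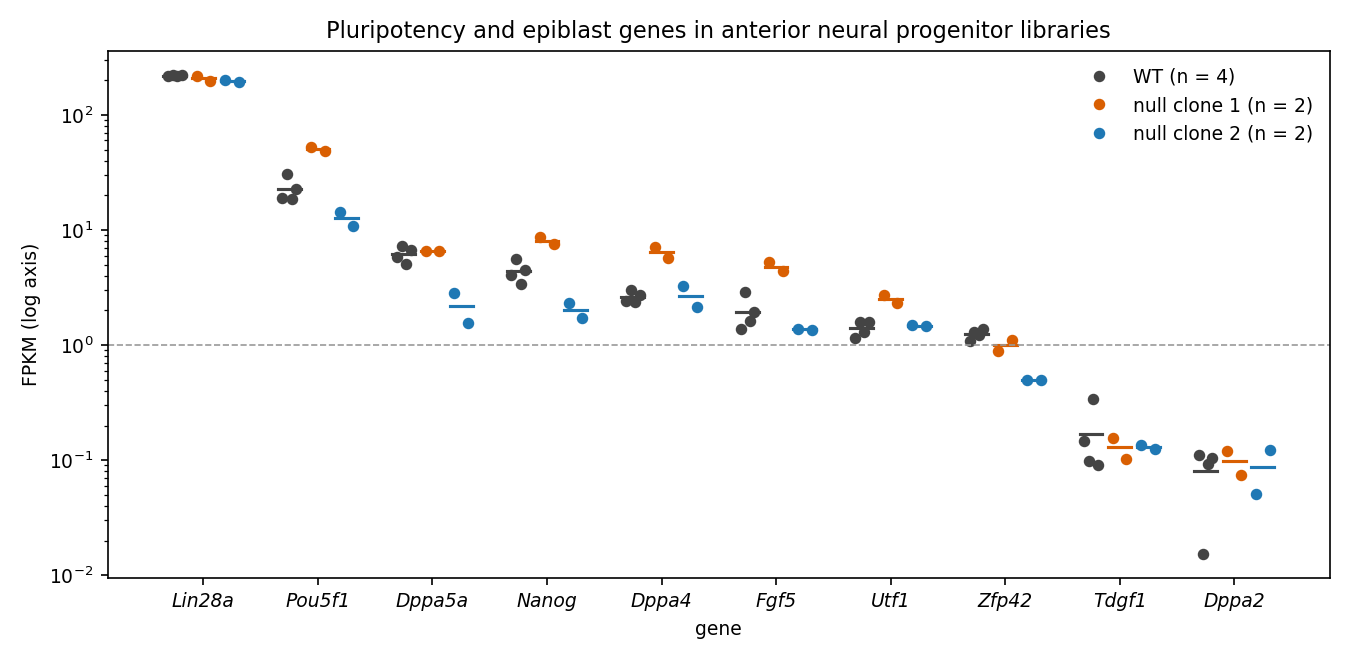
FPKM of the 10 genes on a log axis, with 1 point per library (WT dark grey, null clone 1 orange, null clone 2 blue), horizontal bars for group means and a dashed line at 1 FPKM. Lin28a lies near 200 FPKM in every library, while Pou5f1, Nanog, Dppa4, Fgf5 and Utf1 are higher in both clone 1 libraries than in any WT library.

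Pou5f1, which encodes the core factor OCT4, was at 18.8, 30.4, 18.7 and 22.5 FPKM in the 4 WT libraries, at 52.4 and 48.5 FPKM in clone 1 and at 14.3 and 10.9 FPKM in clone 2. The 3 groups did not overlap: both clone 1 libraries lay above all WT libraries, and both clone 2 libraries lay below them. The clone 1 mean of 50.5 ± 2.76 FPKM (SD, n = 2) was 2.23 times the WT mean, and the clone 2 mean of 12.6 ± 2.39 FPKM (SD, n = 2) was 55.8% of it. On the log2(FPKM + 1) scale, Pou5f1 rose by 1.15 (SE 0.21, limma adjusted p = 0.0199) in clone 1. Its difference of -0.78 in clone 2 (SE 0.21, limma adjusted p = 0.0611) did not pass the threshold of 0.05.

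Nanog, which encodes a homeodomain factor of the same network, stood at 4.05, 5.57, 3.42 and 4.51 FPKM in WT, at 8.71 and 7.48 FPKM in clone 1 and at 2.31 and 1.73 FPKM in clone 2. Here too the libraries of each line formed a block of their own, with clone 1 above WT and clone 2 below it. Nanog rose in clone 1 by 0.77 (SE 0.15, limma adjusted p = 0.0162), with a mean 1.85 times that of WT. It fell by 0.83 on the log2 scale in clone 2 (SE 0.15, limma adjusted p = 0.0154), to 46.1% of the WT mean.

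Fgf5, a growth factor gene of the epiblast, was at 1.37, 2.90, 1.62 and 1.93 FPKM in WT, at 5.23 and 4.39 FPKM in clone 1 and at 1.38 and 1.36 FPKM in clone 2. Clone 1 was above all WT libraries, and clone 2 lay at the lower end of the WT range, level with WT replicate 1. The rise in clone 1 was 1.00 (SE 0.18, limma adjusted p = 0.0116), and the difference in clone 2 was -0.29 (SE 0.18, limma adjusted p = 0.310).

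Dppa4, which encodes a chromatin-associated SAP-domain protein of pluripotent and germ cells, was at 2.44, 2.98, 2.39 and 2.74 FPKM in WT, at 7.10 and 5.68 FPKM in clone 1 and at 3.23 and 2.16 FPKM in clone 2. Only the clone 1 libraries were outside the WT range on the same side, while those of clone 2 lay on both sides of it. Dppa4 rose by 1.02 in clone 1 (SE 0.14, limma adjusted p = 0.0043) and its mean there was 2.42 times that of WT. The difference in clone 2 was 0.01, with a 95% interval of -0.30 to 0.32. Its neighbour Dppa2, the gene of the partner protein, lies next to it on chromosome 16 and had 0.110, 0.0153, 0.0917 and 0.104 FPKM in WT, 0.121 and 0.0744 FPKM in clone 1 and 0.0507 and 0.123 FPKM in clone 2. These Dppa2 levels overlapped between all groups and were all below 0.13 FPKM.

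Utf1, which encodes a chromatin-bound factor of undifferentiated cells, was at 1.15, 1.58, 1.31 and 1.57 FPKM in WT, at 2.72 and 2.32 FPKM in clone 1 and at 1.48 and 1.46 FPKM in clone 2. Clone 1 was above all WT libraries and clone 2 was inside their range. The rise in clone 1 was 0.55 (SE 0.11, limma adjusted p = 0.0134), and the difference in clone 2 was 0.04, with a 95% interval of -0.20 to 0.28.

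Dppa5a encodes a KH-domain RNA-binding protein and showed another order. It was at 5.78, 7.26, 5.09 and 6.64 FPKM in WT, at 6.61 and 6.56 FPKM in clone 1 and at 2.83 and 1.56 FPKM in clone 2. Clone 1 was inside the WT range and clone 2 was below it. Dppa5a fell by 1.19 on the log2 scale in clone 2 (SE 0.17, limma adjusted p = 0.00705), to 35.4% of the WT mean. Its difference in clone 1 was 0.09, with a 95% interval of -0.30 to 0.48.

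Zfp42, also called Rex1, is a zinc finger gene of naive cells and had 1.08, 1.31, 1.22 and 1.37 FPKM in WT, 0.887 and 1.12 FPKM in clone 1 and 0.498 and 0.499 FPKM in clone 2. Clone 2 was below all WT libraries at 40.0% of their mean, and clone 1 overlapped the lower end of WT. Its mean over all libraries, 0.998 FPKM, was just below the limit for the test. With that limit at 0.1 FPKM and 0.1 added before the logarithm, Zfp42 fell by 1.16 on the log2 scale in clone 2 (SE 0.16, limma adjusted p = 0.00884), and its difference in clone 1 was -0.29 (limma adjusted p = 0.276). Without clone 2 replicate 2, which left 1 clone 2 library, Zfp42 reached the limit of 1 FPKM. Its difference in clone 2 was -0.58 there, and it was also -0.58 without clone 2 replicate 1. Each of these fits held 1 clone 2 library, so neither is read against the threshold. With all libraries and no filter on low values, the difference was again -0.58 (limma adjusted p = 0.0206). Tdgf1, the gene of the Nodal co-receptor Cripto, had 0.148, 0.0987, 0.338 and 0.0912 FPKM in WT, 0.155 and 0.103 FPKM in clone 1 and 0.134 and 0.124 FPKM in clone 2, with all null libraries inside the WT range.

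Lin28a showed the smallest spread. Its level was 216, 223, 217 and 222 FPKM in WT, 216 and 199 FPKM in clone 1 and 200.4 and 193 FPKM in clone 2. Both clone 2 libraries were below all WT libraries, and clone 1 replicate 2 was as low as clone 2 in FPKM as deposited. Lin28a fell by 0.16 on the log2 scale in clone 2 (SE 0.04, limma adjusted p = 0.0338), which left it at 89.6% of the WT mean. The difference in clone 1 was -0.08 (SE 0.04, limma adjusted p = 0.185). Rescaling by median ratios put it at -0.02 (limma adjusted p = 0.616) and left that in clone 2 at -0.16. Without clone 1 replicate 2, which left 1 clone 1 library, the difference in clone 1 was also -0.02.

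**Figure D2:**
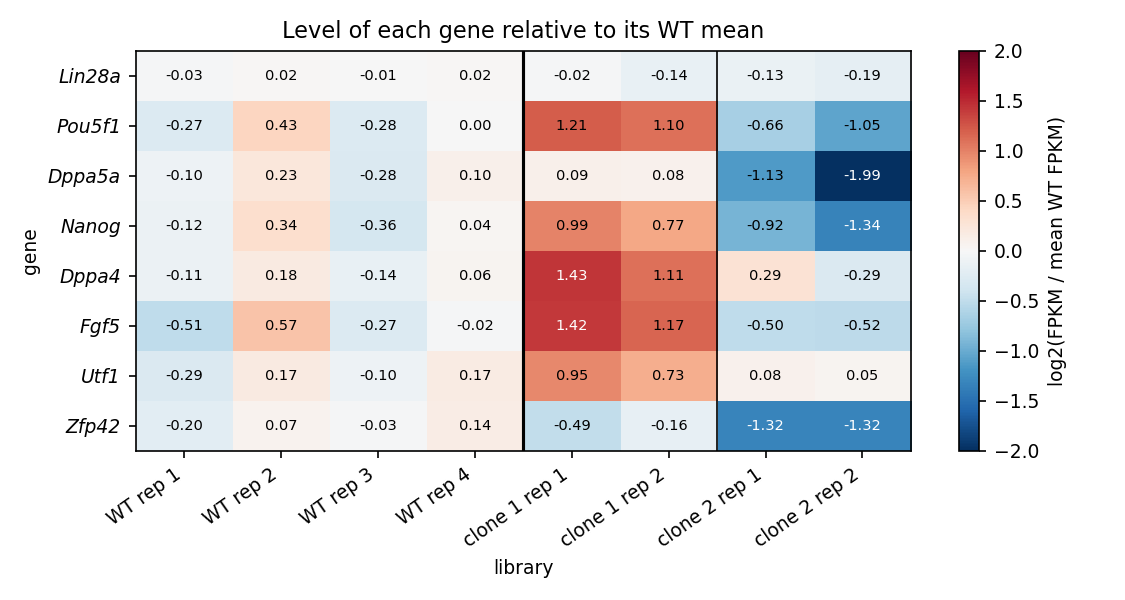
Level of 8 of the genes in each library (columns) as log2 of FPKM over the WT mean, with no value added, where red is above and blue is below the WT mean (colour scale from -2 to 2). Dppa4 and Fgf5 reach 1.43 and 1.42 in clone 1 replicate 1, while Dppa5a is at -1.99 in clone 2 replicate 2 and Lin28a stays between -0.19 and 0.02.

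Counted together, 5 of the 7 tested genes rose in clone 1 (Pou5f1, Nanog, Utf1, Dppa4 and Fgf5) and 0 fell, against a background of 4.16% of all tested genes higher and 11.4% lower (15.6% in either direction). Their median change was 0.77 and that of all tested genes was -0.048. In 5 of all 10 genes both clone 1 libraries exceeded every WT library, an order found in 12.1% of tested genes. In 0 of the 10 were both below every WT library, an order found in 29.2%. Here and below, such shares leave out Zfp42, Tdgf1 and Dppa2, which were not among the tested genes. Dppa4 passed the threshold in all 13 alternative analyses. Without clone 1 replicate 2, the library that stood apart, Dppa4 was the only one of the 5 to pass, 438 genes passed in place of 2266, and the adjusted p was 0.0969 for Pou5f1, 0.0738 for Nanog, 0.0540 for Utf1 and 0.0637 for Fgf5. The log2 changes of the 5 genes were all larger without it, and the median over the tested genes was then 0.86. Without clone 1 replicate 1, only the library that stood apart remained for clone 1, so calls are not counted. The changes of the 5 genes then ran from 0.47 (Utf1) to 1.10 (Pou5f1), and that of Lin28a was -0.14. The median over all tested genes was -0.092 in that fit, against -0.048 with all libraries. Pou5f1 also missed the threshold without WT replicate 1 or WT replicate 4, with adjusted p-values of 0.0504 and 0.0585.

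For clone 2 against WT, 3 of the 7 tested genes fell (Nanog, Dppa5a and Lin28a) and 0 rose, where 6.96% of all tested genes were lower and 7.06% higher (14% in either direction). The median of the 7 was -0.29, or -0.15 without WT replicate 2, and that of all tested genes was 0. Both clone 2 libraries were below every WT library in 5 of the 10 genes (Pou5f1, Nanog, Dppa5a, Lin28a and Zfp42), an order found in 22.7% of tested genes. In 0 of the 10 were both above every WT library, an order found in 24.7%. The fall of Dppa5a passed in all 13 alternatives. That of Nanog did not pass without clone 2 replicate 2 (-0.69, limma adjusted p = 0.174), a fit in which 172 genes passed in place of 2036. Lin28a lost its call in 8 of 13 alternatives, with adjusted p-values up to 0.291. Pou5f1 passed as lower after rescaling by median ratios (limma adjusted p = 0.0488) and without WT replicate 2 (-0.63, limma adjusted p = 0.0280). The comparisons of clone 1 and clone 2 with WT share the 4 WT libraries.

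**Figure D3:**
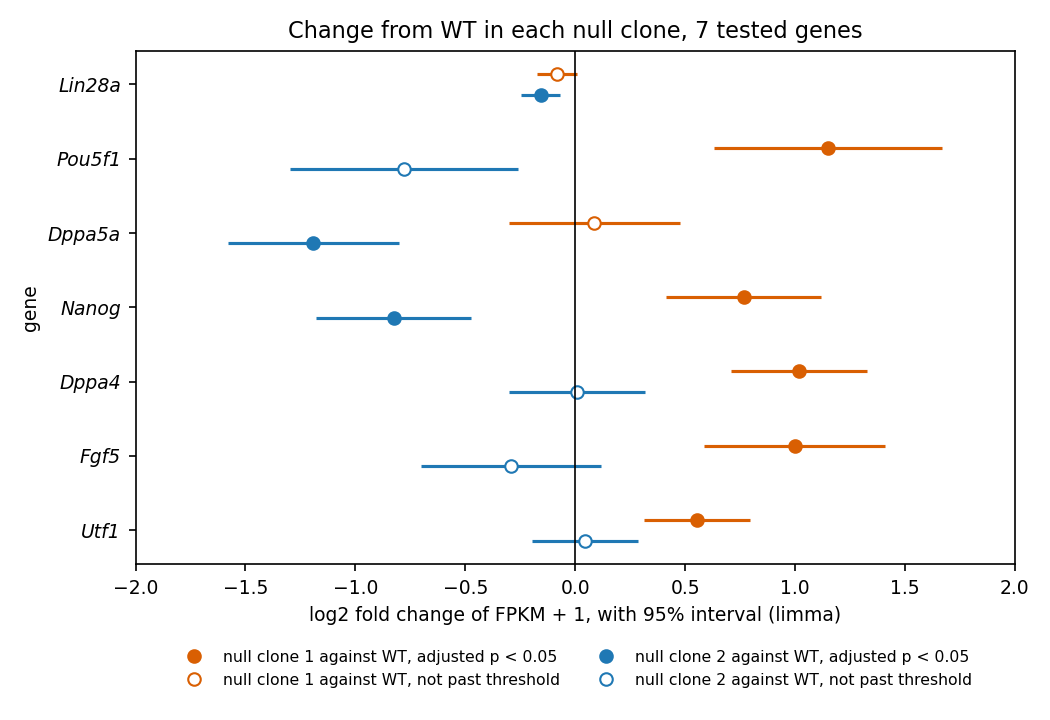
Change from WT of the 7 tested genes as log2 fold change of FPKM + 1, with 95% intervals from limma, for clone 1 (orange) and clone 2 (blue). Filled points passed an adjusted p of 0.05: 5 genes lie to the right for clone 1, and 3 lie to the left for clone 2.

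The direct comparison of the null lines asks whether their changes from WT differed. In clone 2, 6 of the 7 tested genes were lower than in clone 1 and 0 were higher, while 15.0% of all tested genes were lower and 24.9% higher (39.9% in either direction). Pou5f1 and Nanog differed most, by -1.93 (SE 0.25, limma adjusted p = 0.00203) and -1.59 (SE 0.18, limma adjusted p = 0.000512), and the mean of clone 1 was 4.002 and 4.007 times that of clone 2. The differences of Fgf5 and Dppa5a were -1.29 and -1.28. Those of Dppa4 and Utf1 were -1.01 and -0.51, with limma adjusted p-values of 0.00173 and 0.0111. Lin28a differed by -0.07, with a 95% interval of -0.18 to 0.03. The median of the 7 genes was -1.28, and that of all tested genes was 0.045. In 7 of the 10 genes both clone 1 libraries were above both clone 2 libraries, an order found in 27.8% of tested genes. Zfp42 is the seventh of these, at 1.00 FPKM in clone 1 and 0.499 FPKM in clone 2. The differences of Pou5f1, Nanog, Dppa4, Dppa5a and Fgf5 passed in all 13 alternatives, while Utf1 missed the threshold without clone 1 replicate 1 (0.0515) or clone 2 replicate 2 (0.0577). Lin28a passed the threshold after the libraries were rescaled (-0.13, limma adjusted p = 0.0181) and without clone 1 replicate 2 (-0.13, limma adjusted p = 0.0425).

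Pooled as 4 null libraries against 4 WT libraries, the design's other comparison, 0 of the 7 tested genes passed limma's threshold. Across all tested genes 1 was higher and 7 were lower (0.00689% and 0.0482%, 0.0551% in either direction). At an unadjusted p under 0.05 there were 688 genes, and among the 7 only Lin28a (-0.12, unadjusted p = 0.0173, adjusted p = 0.949). The 95% interval of Pou5f1 ran from -1.09 to 1.46, and its null mean of 31.5 ± 21.96 FPKM (SD, n = 4) joins libraries at 10.9 and 52.4 FPKM. Exact two-sided permutation tests of single genes, whose smallest possible p is 0.0286, gave p-values from 0.0571 for Lin28a and Zfp42 to 0.8. In the authors' deposited table, whose test and adjustment are not stated, the null over WT fold was 1.76 for Dppa4 (p = 0.0172), 1.45 for Utf1 (p = 0.0478), 0.614 for Zfp42 (p = 0.00922) and 0.938 for Lin28a (p = 0.0202). The folds of Pou5f1 and Nanog in the authors' deposited table were 1.496 (p = 0.312) and 1.18 (p = 0.677). That table gives mean reads of 498 in WT for Pou5f1, 48.0 for Utf1, 23486 for Lin28a and 3.96 for Dppa2, which shows how few reads stand behind the lowest genes.

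WT libraries also differed among themselves. WT replicate 2 was the highest of the 4 in 7 of the 10 genes, and it was the highest in 37.2% of all tested genes. Fgf5 ranged from 1.37 to 2.90 FPKM and Pou5f1 from 18.7 to 30.4 FPKM within WT, while Lin28a ranged only from 216 to 223 FPKM. Over the 8 libraries, the log2 levels of Pou5f1 correlated with those of Nanog at r = 0.983 and with those of Fgf5 at r = 0.960, and Utf1 with Dppa4 at r = 0.954. Lin28a and Utf1 had r = -0.096. These coefficients describe 8 libraries from 3 lines, and libraries of a line share that line's level.

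Among all other tested genes, those most like each of the 7 by Pearson correlation over the same 8 libraries were as follows, as a description with no test. Foxh1, which encodes a DNA-binding partner of SMAD2, had r = 0.998 with Pou5f1 and means of 18.9, 30.9 and 13.2 FPKM in WT, clone 1 and clone 2. Gm38312 and Adi1, an enzyme gene of methionine salvage, followed at 0.997 each. Nanog was closest to Ndrg2 (0.997), Thy1 (0.996), a cell surface glycoprotein gene, and Creb3l1 (0.995), and Thy1 was at 6.96, 16.3 and 3.03 FPKM in the 3 groups. For Fgf5 the closest were Cgref1 (0.995), Ftl2-ps and Gm12164, and for Dppa4 they were Tob1 (0.988), Eci1 and Ap1m2, the last a subunit gene of an epithelial adaptor complex. Utf1 was most like Dnajb5 (0.971), Gm13340 and Smarcb1. Dppa5a was most like Lgals8 (0.993), Msmo1 and Kdelc1, and Msmo1, an enzyme gene of sterol synthesis, was at 202, 202 and 148 FPKM. Lin28a was most like Atl2 (0.992), Klhl5 and Rif1 (0.987).

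The wider pathway genes were counted in the same fit, with no set test. Over all tested genes, 4.16% were higher and 11.4% lower in clone 1, and 7.06% were higher and 6.96% lower in clone 2. These shares apply to the counts with all libraries in every list below, cell type markers included. Counts given without replicate 2 of a clone come from fits that left that clone 1 library. Far fewer of all genes passed in those fits, as given above, so a low count there is not particular to a list. Of 10 partners of the core factors, all tested, 2 rose in clone 1: Zscan10, a zinc finger gene of stem cells, from 15.5 ± 1.97 to 28.6 ± 1.58 FPKM (0.85, limma adjusted p = 0.00538), and L1td1, which encodes an RNA-binding protein, from 1.38 to 3.41 FPKM (0.86, limma adjusted p = 0.0116). In clone 2, 3 of the 10 fell, namely Sall4, from 77.5 to 52.5 FPKM, Zscan10, to 10.7 FPKM, and Rif1, from 42.6 to 36.7 FPKM. The count in clone 1 was 2 higher and 0 lower also without clone 1 replicate 2, and 1 of the 10 fell in clone 2 without clone 2 replicate 2. Sox2, shared by stem cells and neural progenitors, stood at 135, 131 and 121 FPKM in WT, clone 1 and clone 2, with adjusted p-values of 0.63 and 0.082. The medians of the list were -0.017 and -0.021. Naive genes were mostly below the filter: 2 of 15 were tested, 0 passed in either clone, and the highest value of any of them in any library was 3.43 FPKM. Klf2, a naive Krüppel-like factor gene, was at 1.28, 2.02 and 0.686 FPKM, with limma adjusted p-values of 0.0707 in clone 1 and 0.0703 in clone 2.

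Formative and primed epiblast genes gave 11 of 14 tested. In clone 1, 3 rose and 1 fell, with a median of 0.092. Dnmt3l, the gene of a cofactor of DNA methyltransferases, went from 1.21 to 2.14 FPKM (0.51, limma adjusted p = 0.0257) and Zic2 from 50.9 to 71.9 FPKM (0.49, limma adjusted p = 0.0385). Dnmt3b, a DNA methyltransferase gene, was the other to rise (0.54), and Sox3, also a neural gene, fell by 0.30. In clone 2, 4 fell and 0 rose, with a median of -0.27: Dnmt3b by 0.38, Otx2 by 0.31, Dnmt3l by 0.57 and Pou3f1 by 0.29 (limma adjusted p-values of 0.0143, 0.0178, 0.0206 and 0.0499). Otx2 and Pou3f1 are also known as genes of anterior neural tissue, and Otx2 was still at 166 FPKM in clone 2. Leaving out clone 1 replicate 2, 1 gene of this list passed as higher and 1 as lower in clone 1, and leaving out clone 2 replicate 2, 0 passed in clone 2.

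Of the genes around the Nodal signal for which Tdgf1 encodes a co-receptor, 8 of 17 were tested. Foxh1 rose in clone 1 (0.69, limma adjusted p = 0.0168) and stood lower in clone 2 without passing (-0.48, limma adjusted p = 0.0552), while Acvr2a, a receptor gene, and Smad2, a signal transducer gene, fell in clone 1 by 0.42 and 0.31. In clone 2, 0 of the 8 passed. Nodal itself had a mean of 0.107 FPKM in WT, 0.0246 in clone 1 and 0.246 in clone 2, and Cfc1, the other co-receptor gene of the family, was listed at 0 in every library. When clone 1 replicate 2 was left out, 0 of the 8 passed in clone 1.

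Among FGF ligands and receptors other than Fgf5, 6 of 12 were tested. Fgf13 fell by 0.38 in clone 1 (limma adjusted p = 0.0497). In clone 2, Fgf8, a signal of the early brain, rose from 2.34 ± 0.761 to 9.75 ± 3.91 FPKM (1.67, limma adjusted p = 0.0175) and the receptor gene Fgfr2 fell from 86.5 to 64.1 FPKM (-0.42, limma adjusted p = 0.0202). Without clone 2 replicate 2, 0 of the 6 passed in clone 2, and without clone 1 replicate 2, 0 passed in clone 1.

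Around Lin28a, the list of the LIN28 and let-7 axis held 14 symbols, of which 12 were tested. The other symbols, Tut4 and Tut7, are newer names of the terminal uridylyltransferase genes, which were tested under their older symbols Zcchc11 and Zcchc6. In clone 1, 3 fell and 0 rose: Hmga2, a let-7 target, from 34.9 to 24.6 FPKM (-0.49, limma adjusted p = 0.00387), Igf2bp3, an mRNA-binding protein gene, by 0.29, and Lin28b, the paralog of Lin28a, from 28.2 to 23.8 FPKM (-0.24, limma adjusted p = 0.0431). In clone 2, Arid3a and Igf2bp2 fell by 0.42 and 0.31, and Igf2bp1 rose by 0.24. In clone 1 without its replicate 2, 1 of the 12 passed, and without clone 2 replicate 2, 0 passed in clone 2.

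Epithelial genes, which epiblast cells express and neural cells lose, were measured because Pou5f1, Nanog and Fgf5 were also higher in clone 1. The list had 6 genes, and the 5 tested all rose in clone 1, with a median of 1.41: Cdh1, the gene of E-cadherin, from 7.39 ± 1.79 to 22.2 ± 3.39 FPKM, Epcam from 4.36 to 12.9, Cldn7 from 1.78 to 7.20 and Cldn6 from 2.95 to 9.35 FPKM, with limma adjusted p-values of 0.00576, 0.0109, 0.00328 and 0.00284. Without clone 1 replicate 2, 4 of the 5 passed. In clone 2, 0 of the 5 passed, and Cdh1 had the smallest p (-0.59, limma adjusted p = 0.0802). Grhl2, the gene below the filter, was at 0.971 and 0.976 FPKM in clone 1, inside its WT range of 0.426 to 1.03 FPKM. The summed level of the list was 14.6 to 25.8 FPKM in WT, 52.7 to 63.8 in clone 1 and 11.1 to 14.9 in clone 2.

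**Figure D4:**
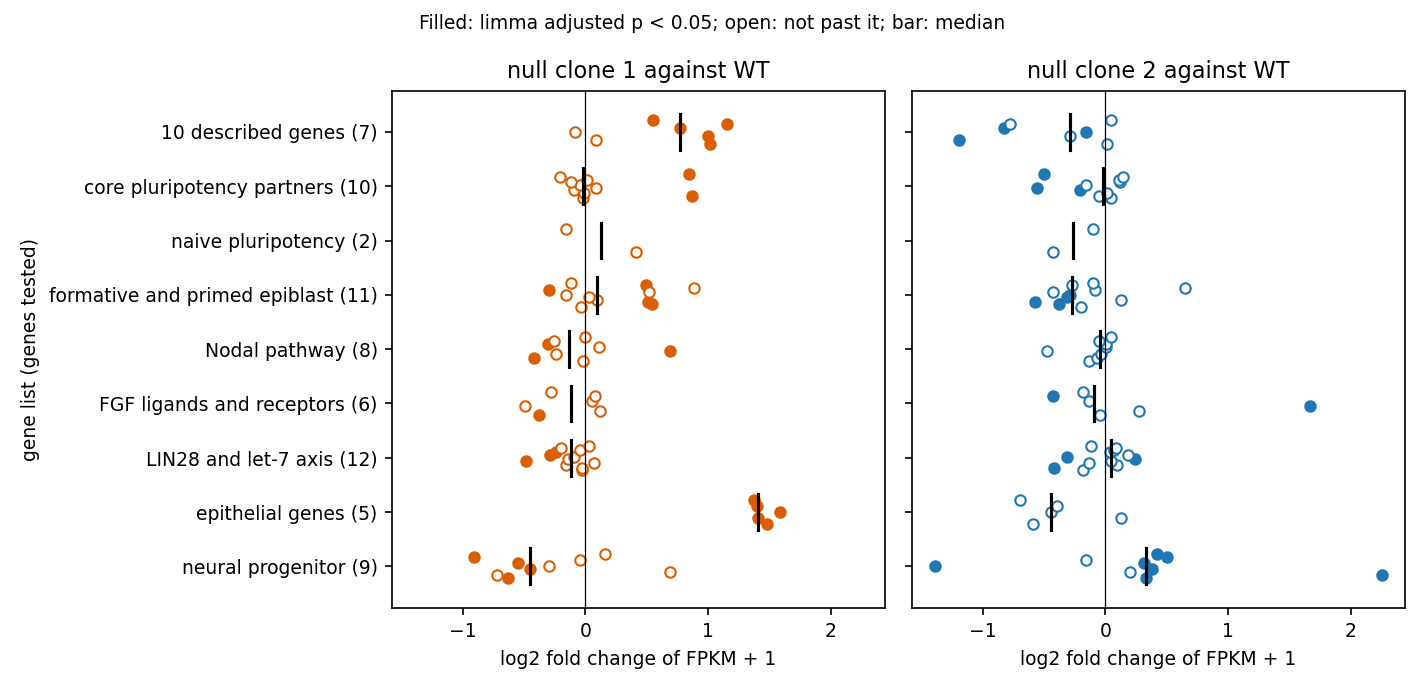
Change from WT of every tested gene in 9 lists (log2 fold change of FPKM + 1), with the number of genes tested in brackets, clone 1 on the left and clone 2 on the right. Filled points passed an adjusted p of 0.05 and bars are medians: for clone 1 the 10 described genes (7 tested) and the epithelial genes have medians of 0.77 and 1.41, and the neural progenitor markers have -0.45.

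Markers of other cell types were read from the same libraries. Of the 9 neural progenitor markers, 4 fell in clone 1 (Sox21, Cdh2, Sox1 and Nes, by 0.91, 0.63, 0.55 and 0.45) and 0 rose. In clone 2, 6 rose, among them Vim (0.42), Sox21 (0.50) and Fabp7, from 2.03 ± 0.664 to 13.99 ± 6.81 FPKM (2.26, limma adjusted p = 0.00924), and Pax6 fell from 38.6 to 14.5 FPKM (-1.39, limma adjusted p = 0.0050). Their summed level was 364 to 388 FPKM in WT, 307 to 333 FPKM in clone 1 and 391 to 432 FPKM in clone 2. These ranges as deposited did not overlap, but WT and clone 2 lay close, at 388 and 391 FPKM. The sums were not compared after rescaling, and that of clone 2 joins markers that rose with Pax6, which fell. Without clone 1 replicate 2, 1 of the 9 fell in clone 1, and without clone 2 replicate 2, 1 rose and 1 fell in clone 2. The part of the neural and epithelial genes in the levels of the pluripotency genes was not tested.

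The 6 primitive streak and mesoderm markers, of which 0 reached the filter, summed to 1.36 to 1.70 FPKM in WT, 1.97 to 2.30 in clone 1 and 1.46 to 1.47 in clone 2, with Mixl1 and Mesp1 at 0 in some libraries. The 6 endoderm markers summed to no more than 1.00 FPKM in any library, with Sox17, Cer1 and Afp at 0 in some. Trophectoderm markers summed to 20.6 to 33.5 FPKM, nearly all of it Krt8 and Krt18, and Cdx2 was listed at 0 in every library; 2 of 6 were tested and 0 passed in either clone. Of the 5 neural crest markers, only Ets1 was tested, and it rose in clone 1 from 5.42 to 9.82 FPKM (0.76, limma adjusted p = 0.0366), while 0 neural crest markers passed there without clone 1 replicate 1 or without clone 1 replicate 2. Of the 5 neuronal markers 2 were tested: Elavl3 fell in clone 2 from 2.95 to 1.97 FPKM (-0.41, limma adjusted p = 0.0251), and Map2 had 28.1, 21.0 and 28.5 FPKM. Tubb3 was not found by symbol, and Dcx and Neurod1 lay below the filter. Neurod1 was at 2.44 and 1.48 FPKM in clone 1, 0.537 to 0.904 FPKM in WT, and 0.317 and 0.207 FPKM in clone 2.

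Several of the genes share sequence with others, which bears on their levels. Pou5f1, at chr17:35506018-35510772 (GRCm38, GENCODE M21), is overlapped by the antisense gene Gm19553, which had means of 2.36, 5.85 and 1.19 FPKM in WT, clone 1 and clone 2. The use of strand in counting is not stated in the labels, so reads of this pair cannot be told apart. Pou5f1 also has a near copy, the pseudogene Gm5712 (87.2% identity over 1074 bases), which was listed at 0 in every library. Dppa4, at chr16:48283733-48294237, matches the pseudogene Gm14058 over 532 bases at 99.4% identity, and Gm14058 had 0.236, 0.870 and 0.367 FPKM. Dppa5a, at chr9:78367052-78368177, has 12 near copies, among them a stretch of 417 bases at 95.9% identity in a transcript annotated to Pigp, which stood at 54.5, 48.8 and 49.6 FPKM. The level of Dppa5a is therefore uncertain where reads could be split between copies. Dppa2 and Tdgf1 have 8 and 3 near copies, and their levels are uncertain for the same reason. No near copy was found for Nanog (chr6:122707489-122714633), Utf1 (chr7:139943789-139945112), Fgf5 (chr5:98254184-98277030), Lin28a (chr4:134003330-134018841) or Zfp42 (chr8:43295063-43306980), all of which are annotated as protein-coding genes. Lin28a is overlapped on the other strand by Gm13061, which had 0.999, 0.846 and 0.912 FPKM in WT, clone 1 and clone 2.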

How the data were processed

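Poly(A) RNA of 8 libraries was measured as FPKM by the authors, per the file headers, 1 column per library. The authors' deposited table also holds a mean read signal per genotype, a null over WT fold (ratio) and a p-value per gene, whose test and scaling are not stated. Per the submitters' processing notes, which give no version or role, the tools were TopHat2, Cufflinks, SAMtools, FastQC and DESeq2 on GRCm38 (mm10). As no count per library was analysed here, depth is known only relatively, and the summed mean reads were 26693189 (WT) and 26864352 (null). 0 columns of per-sample values were left unmapped.

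The design allowed for either counts or FPKM, and for FPKM limma 3.58.1 in R 4.3.3 (trend, robust) was run on log2(FPKM + 1) of genes with a mean of at least 1 FPKM. Fold changes are on that scale and are understated for genes of low level. The clone comparisons came from 1 fit of WT, clone 1 and clone 2, and null against WT from a fit of 2 groups. P-values were adjusted by Benjamini-Hochberg over all 14521 genes, with a threshold of 0.05. Intervals are at 95%. The fit was also tested on simulated data for clone 1 against WT (14304 genes). It recovered 93% of genes changed by 0.75 and 98% of those changed by 1.5, with 12 false among 203 calls. The changed genes were drawn only from those with a WT mean above 2 on the log2(FPKM + 1) scale. Dppa4, Fgf5 and Utf1 lie below that limit, so recovery at their level was not tested. Noise was drawn independently for each library, with none set apart like clone 1 replicate 2. No pair among the 28 pairs of libraries was identical (0 found).

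Each null column was tied to its clone, since its number does not match a sample title. Near copies were sought with BLAST 2.17.0 (at least 85% identity over at least 300 bases or over 40% of the transcript). Motifs were searched on both strands in the 250 bases before each RefSeq start. The 10 genes, the gene lists and the naming rule were chosen with earlier results of these data known. The rule named, per list and clone, up to 4 genes past the threshold with the smallest adjusted p, or else the gene with the lowest p, and the 3 genes most like each of the 7 tested. Alternatives were another pseudocount, other filters, rescaling by median ratios, limma without trend and robust, correlated libraries within a line, and each library left out.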

Additional observations from a re-analysis of the deposited data

Results flagged for a closer look

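For 6 genes the change from WT differed between the null clones by limma's direct test of that difference, which is the comparison of clone 2 with clone 1 and which 39.9% of all tested genes passed (15.0% lower in clone 2). On the log2 scale, clone 2 minus clone 1 was -1.93 for Pou5f1, -1.59 for Nanog, -1.29 for Fgf5, -1.28 for Dppa5a, -1.01 for Dppa4 and -0.51 for Utf1. Both lines carry the same deletion label and had 2 libraries each. Among the WT libraries of the 10 genes, 0 lay far enough from the others to stand apart by Dixon's 95% limit, which chance passes in about 1 in 20 groups.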

How the results depend on the processing

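The limits of these values are the 2 libraries per clone, the lack of per-library counts and the low levels of Utf1, Fgf5 and Zfp42, for which 1 FPKM added before the logarithm holds the change down. With 0.1 FPKM added, the median difference of clone 2 from clone 1 was -1.60. Without a filter on low values, that median was -0.76, the median in clone 1 was 0.32 and that in the null group was -0.0065, as the low genes then enter it. With a filter at 0.1 FPKM and 0.1 added, the null median was -0.093. Without a filter, 1506 genes passed in clone 1 and 1160 in clone 2. For null against WT, 17 genes passed with the filter at 0.1 FPKM and 0.1 added, 10 with 0.1 added alone, 5 after rescaling and 3 with libraries of a line correlated (correlation 0.656). Rescaling put the mean of Dppa5a in clone 1 at 6.78 FPKM, of Fgf5 in clone 2 at 1.36 FPKM and of Zfp42 in clone 2 at 0.493 FPKM. It also moved the share of higher among called genes from 26.7% to 49.4% in clone 1 and from 62.4% to 50.3% in clone 2 against clone 1, while the calls of the 7 genes in clone 1 were the same in number, 5 higher and 0 lower.

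With each library left out in turn, genes passing ran from 438 to 3091 in clone 1, from 172 to 2425 in clone 2, from 3099 to 5904 between the clones and from 3 to 8 for null against WT. Of the 10 genes, 1 to 5 were called higher and 0 to 1 lower in clone 1, and 1 to 4 lower in clone 2. Their median ran from 0.57 to 0.87 in clone 1, from -0.44 to -0.15 in clone 2, from -1.28 to -0.89 between the clones and from -0.15 to 0.33 in the null group. The sign changed for differences that had not passed: Utf1 in clone 2 ran from -0.0089 to 0.079, Dppa4 in clone 2 from -0.20 to 0.22, Pou5f1 in the null group from -0.15 to 0.57 and Nanog there from -0.33 to 0.28. No other change of sign was found in the alternatives run. The lowest counts of genes came without clone 1 replicate 2 for clone 1, without clone 2 replicate 2 for clone 2 and between the clones, and without WT replicate 1 for null against WT. The cause was not tested. A clone left with 1 library is assumed to vary like the other groups. No paired analysis was possible because no label ties a WT library to a null library. The columns of the null libraries also carry numbers 1 and 2 per clone, not the replicate numbers of the sample titles.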
